A study of Mus musculus with 6 samples.

Results

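Macrophages sorted from the omentum 7 d after an intraperitoneal injection of ID8 cells (OM 7d) were compared with macrophages sorted from the omentum of naive mice (OM naive), by RNA sequencing. The comparison used 2 of the 6 libraries of the series and the 7099 genes, of 23946 gene symbols measured, that reached 10 FPKM (fragments per kilobase of transcript per 1000000 mapped reads) in at least 1 of the 2 libraries. The other 4 libraries were omental macrophages 24 h after the injection (OM 24h) and macrophages of the mesenteric adipose tissue that were naive (MY naive), 24 h (MY 24h) or 7 d (MY 7d) after it. All mice were C57BL/6, and all cells were gated as CD45+CD11b+F4/80+, that is, positive for the pan-leukocyte marker, an integrin of myeloid cells and the classical mouse macrophage antigen. ID8 is a mouse ovarian carcinoma line, derived from ovarian surface epithelium of the same strain, that forms peritoneal tumours. The labels call the reference mice naive, while the study's methods also describe control mice that received PBS, and whether the reference mice had been given PBS is not stated in the sources used here. No library was labelled as vehicle, so an effect of the injection itself and an effect of the tumour cells cannot be told apart with certainty. The tissue of 3 mice went into a library, and each condition had 1 library. The spread between replicates is therefore unknown for every value below, differences describe these libraries alone, and p-values are absent.

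The omentum is a fold of visceral fat studded with milky spots, which are clusters of leukocytes around capillaries beneath gaps in the mesothelium. Its macrophages include long-lived resident cells, which carry scavenger and lectin receptors such as Lyve1, Timd4, Cd163 and Folr2, and cells that derive from blood monocytes. Macrophages shape a tissue through secreted chemokines, complement and matrix proteins, through the uptake of dying cells, and through the display of peptides on MHC molecules.

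The FPKM of a library summed to between 526887 in MY naive and 713863 in OM 24h, and to 620700 in OM naive and 560290 in OM 7d. Read totals are not part of the table, and the study gives a range of reads per sample without a total for each library. The spacing of the lowest values gave a rough depth for OM 7d of 1.74 times that of OM naive. The ends of the study's range lie closer together than this, so the ratio is uncertain. If OM 7d was the deeper library, low values in OM naive rest on fewer reads. No gene of a housekeeping list was listed at 0 in any library. Differences are given as log2(FPKM + 1) in OM 7d minus log2(FPKM + 1) in OM naive, called the log2 difference, and the added 1 makes changes of weakly expressed genes look smaller than they were. When each library was rescaled to a sum of 1000000, the median log2 difference of all genes moved from −0.087 to 0.058, so differences of this size carry no direction.

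Of the 7099 genes, 599 (8.44%) were at least 2-fold higher in OM 7d and 169 (2.38%) were at least 2-fold lower. The higher genes had a median log2 difference of 1.99, 297 of them were at least 4-fold and 130 at least 8-fold higher. The lower genes had a median of −1.29, with 32 at least 4-fold and 12 at least 8-fold lower. At the edge of the count, Mt2 (11.3 to 23.6 FPKM) was the last gene called higher and Tmem86a (15.2 to 31.4 FPKM) the first that was not. Prrc2a (10.9 to 4.91 FPKM) was the last called lower and Pou2f2 (62 to 30.6 FPKM) the first that was not. At the edge of the set itself, Gpatch3 was in with 10 FPKM in OM 7d and Mcm3ap was out with 9.99 in OM naive. The genes are described below by lists of cell type and function. Counts of higher and lower members are to be read beside the 8.44% and 2.38% of all 7099 genes. A member that reached 10 FPKM only in OM 7d had to lie higher, and one that reached it only in OM naive had to lie lower. The plots of the lists therefore give the median over all measured members.

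**Figure D1:**
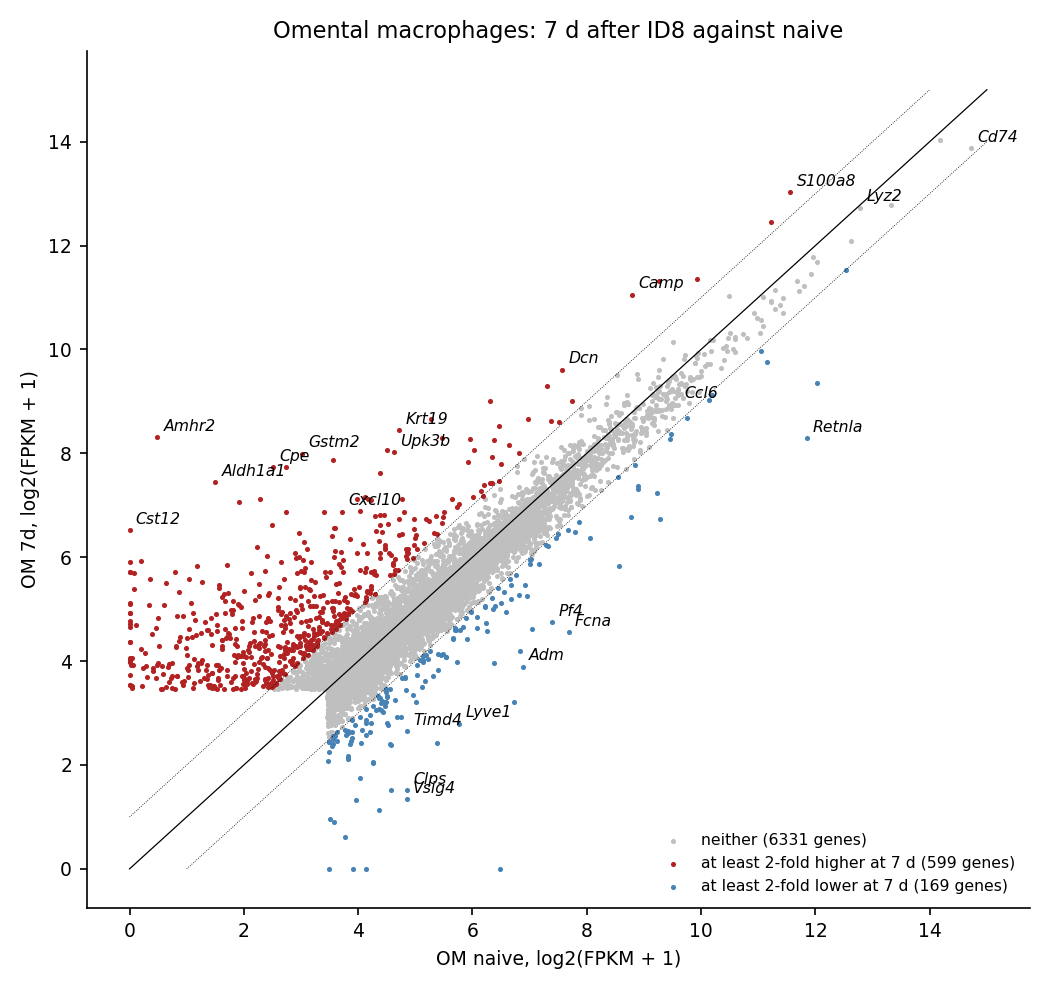
Level of each of the 7099 genes in OM naive (x axis) and OM 7d (y axis), both as log2(FPKM + 1). The solid line marks equal levels and the dotted lines a 2-fold difference, and the 599 higher genes (red) reach from genes at or near 0 in OM naive to S100a8, while the 169 lower genes (blue) include Retnla, Fcna and Lyve1.

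In OM naive 431 of the 599 higher genes (72%) were below 10 FPKM, and these could enter the set only by being high in OM 7d. Of the 599, 78 were below 1 FPKM in OM naive and 21 were listed at 0. Likewise 80 of the 169 lower genes (47.3%) were below 10 FPKM in OM 7d, and these could enter the set only through OM naive. The median of the higher genes was 5.34 FPKM in OM naive and 24.9 in OM 7d. In the mesentery 191 of the higher genes (31.9%) stayed below 1 FPKM in every library, against 227 (3.2%) of all 7099 genes. Of those 227 genes, 84.1% were in the higher group. The lower genes started from a median of 33.9 FPKM and ended at 11.7, and 120 of the 169 (71%) reached 10 FPKM in at least 1 mesenteric library, against 36.2% of the higher genes and 89.1% of all 7099. Of the lower genes 8.28% stayed below 1 FPKM in every mesenteric library. Both groups thus held a larger share of genes that were low in the mesenteric libraries than all genes did, and the share was larger in the higher group.

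The genes of the sort were checked first. Ptprc, which encodes CD45, stood at 182 FPKM in OM naive, 106 in OM 24h and 124 in OM 7d. Itgam, which encodes CD11b, stood at 91.2 FPKM in OM naive, 151 in OM 24h and 58.7 in OM 7d. Emr1, which encodes F4/80, stood at 27.4 FPKM in OM naive, 135 in OM 24h and 26.5 in OM 7d. All were clearly present in both libraries, and the log2 differences between OM 7d and OM naive were −0.55, −0.63 and −0.045. Of 10 general macrophage genes 9 passed the filter, none was 2-fold higher or lower, and their median log2 difference was −0.36. The complement genes C1qa, C1qb and C1qc, which tissue macrophages secrete in large amounts, had log2 differences of −0.90, −0.81 and −0.97, short of 2-fold. Fcgr1, a high-affinity Fc receptor, lay the other way at 7.38 to 15 FPKM. The summed level of the list was 9219 FPKM in OM naive, 37845 in OM 24h and 8055 in OM 7d, so the 2 libraries compared lay close together and OM 24h lay well above both.

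Genes of resident macrophages lay lowest of the macrophage lists. Of 12 such genes 9 passed the filter, 7 were lower and 1 was higher, with a median log2 difference of −2.19, or −1.53 over all 12. Among the lower genes Lyve1, Timd4, Cd163, Mrc1 and Cd209f passed only through OM naive and so had to lie lower. Lyve1, a hyaluronan receptor of macrophages that lie along vessels (chr7:117994121-118006467, minus strand of NCBIM37), stood at 53.5 FPKM in OM naive, 55.3 in OM 24h and 5.96 in OM 7d and at 2.26, 1.79 and 1.04 in the naive, 24h and 7d mesenteric libraries. Its log2 difference was −2.97, and it was at no more than 2.26 FPKM in the mesentery. Timd4, a receptor for phosphatidylserine on dying cells, stood at 27.8 FPKM in OM naive, 13.5 in OM 24h and 5.3 in OM 7d. Cd163, the scavenger receptor for haemoglobin bound to haptoglobin, stood at 18.2 FPKM in OM naive, 21 in OM 24h and 3.13 in OM 7d. Folr2, a folate receptor of resident macrophages, stood at 81.6 FPKM in OM naive, 220.0 in OM 24h and 14.5 in OM 7d. Their log2 differences were −2.19, −2.22 and −2.41. The levels of Lyve1, Cd163 and Folr2 in OM 24h were at or above those of OM naive, while Timd4 was already lower there. Cbr2 (112 to 17.4 FPKM), the mannose receptor Mrc1 (20.8 to 7.13 FPKM) and the lectin Cd209f (13.1 to 3.51 FPKM) completed the 7 lower genes. F13a1, which encodes a subunit of coagulation factor XIII, was at 64.6 and 48.5 FPKM, under 2-fold apart. Gas6, a ligand of the Axl and Mertk receptors, was the exception at 26.3 FPKM in OM naive, 69.9 in OM 24h and 139 in OM 7d, with a log2 difference of 2.36. In bulk RNA, fewer cells of a type and less of its RNA per cell cannot be told apart.

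Several other genes known from tissue macrophages had some of the lowest log2 differences of all. Retnla, a secreted resistin-like protein of macrophages exposed to interleukin 4 (chr16:48842665-48844574, plus strand), had the lowest log2 difference of all genes other than short RNAs, −3.56, with 3681 FPKM in OM naive, 2402 in OM 24h and 311 in OM 7d. Vsig4, a complement receptor of tissue macrophages (chrX:93442542-93488777, minus strand), stood at 27.8 FPKM in OM naive, 37.2 in OM 24h and 1.53 in OM 7d. Fcrls, an Fc receptor-like gene best known from microglia (chr3:87054680-87067660, minus strand), stood at 105 FPKM in OM naive, 169 in OM 24h and 8.27 in OM 7d. By FPKM, Vsig4 was 18.1-fold and Fcrls 12.7-fold lower in OM 7d, and both were higher in OM 24h than in OM naive. Fcna, which encodes ficolin A, a lectin of the complement system (chr2:25480186-25483550, minus strand), was at 204 FPKM in OM naive, 269 in OM 24h and 22.6 in OM 7d and at 53, 178 and 88.1 in the naive, 24h and 7d mesenteric libraries. Pf4, the chemokine platelet factor 4 (chr5:91201461-91202407, plus strand), was at 167 FPKM in OM naive, 601 in OM 24h and 25.8 in OM 7d. Outside the naming rule, and chosen after their values were seen, were Ltc4s (131 to 23.5 FPKM), the enzyme that makes leukotriene C4, Pltp (601 to 150.1 FPKM), a phospholipid transfer protein, and Cd209d (13.2 to 3.39 FPKM), a lectin. Lyz1 (377 to 55.6 FPKM) shares reads with its near-identical neighbour Lyz2, and the sum of both was 7431 FPKM in OM naive and 6847 in OM 7d, so the lower level of Lyz1 alone is uncertain.

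Genes of the large peritoneal macrophage, the main macrophage of the peritoneal fluid, were split. Of 11 genes 4 passed the filter, 2 were higher and 2 lower, with a median log2 difference of 0.35 over all 11. Gata6, the transcription factor that these cells depend on, stood at 2.06 FPKM in OM naive, 15.9 in OM 24h and 36.7 in OM 7d and at no more than 0.298 in the mesentery. Alox15, a lipoxygenase, stood at 5.03 FPKM in OM naive, 22.7 in OM 24h and 36.1 in OM 7d. In the naive, 24h and 7d mesenteric libraries it was at 1.88, 32.6 and 15.5, so it was higher after injection in both tissues. Icam2 (73.9 to 32.2 FPKM) and Fcna were lower, and Prg4 (5.68 to 1.89 FPKM) stayed below the filter. Gata6 is also a gene of mesothelial cells, whose markers are described below.

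**Figure D2:**
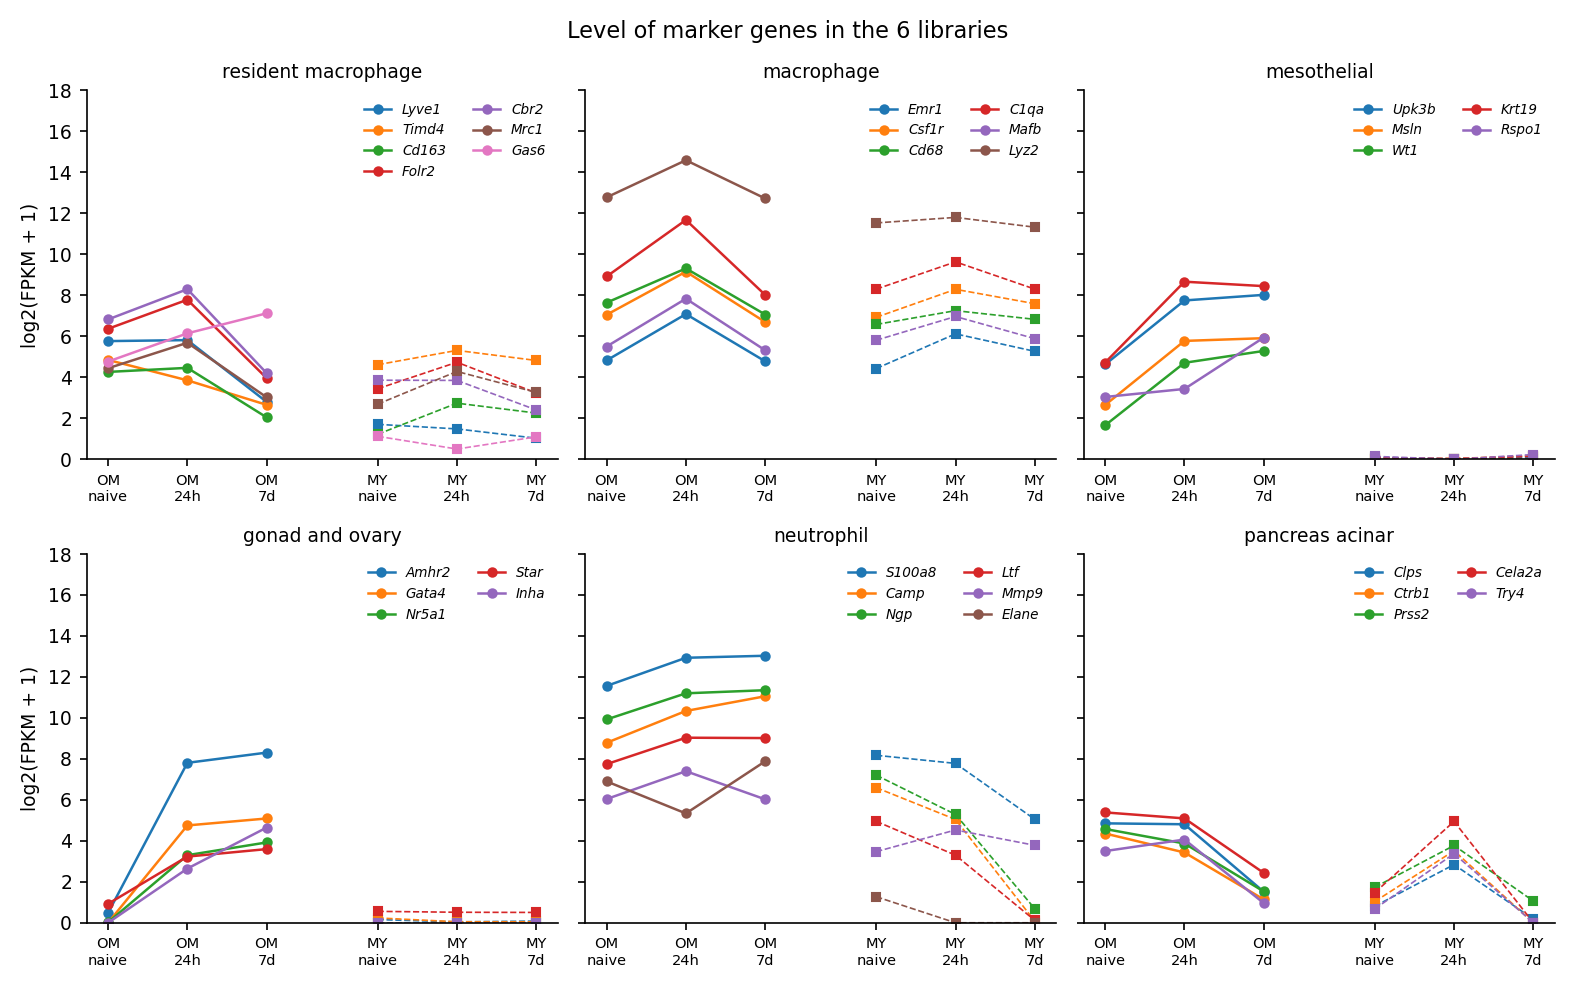
Level of marker genes in the 6 libraries as log2(FPKM + 1), with omental libraries as circles on solid lines and mesenteric libraries as squares on dashed lines. From OM naive to OM 7d most resident macrophage genes and the pancreatic genes lie lower, the general macrophage genes lie close together, and the mesothelial and gonadal genes lie higher and stay near 0 in the mesentery.

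Monocyte genes were mostly level. Of 12 genes 11 passed the filter, 3 were higher and none lower, and the median log2 difference was 0.31. Chil3, a chitinase-like protein of monocytes and alternatively activated macrophages, stood at 157 FPKM in OM naive, 555 in OM 24h and 629 in OM 7d. Ly6c2, the antigen of classical inflammatory monocytes, stood at 164 FPKM in OM naive, 241 in OM 24h and 391 in OM 7d. Hp, which encodes haptoglobin, stood at 72.8 FPKM in OM naive, 188 in OM 24h and 166 in OM 7d. These were the 3 higher genes, with log2 differences of 1.99, 1.25 and 1.18. Ccr2, the chemokine receptor that brings monocytes out of the marrow, was at 137 and 112 FPKM in OM naive and OM 7d, and Plac8 at 1059.9 and 956.

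Neutrophil genes lay higher or level. Of 11 measured genes 9 passed the filter, 5 were higher and none lower, against 8.44% and 2.38% of all genes. The median was 1.23. The higher ones were S100a8, S100a9, Camp, Ltf and Ngp, of which Camp, Ltf and Ngp are made mainly while granulocytes mature in the marrow. S100a8 stood at 3020.2 FPKM in OM naive, 7826 in OM 24h and 8381 in OM 7d and at 288, 219 and 32.1 in the naive, 24h and 7d mesenteric libraries. Camp, the cathelicidin of secondary granules, stood at 440.2 FPKM in OM naive, 1294 in OM 24h and 2128 in OM 7d and at 95.7, 32 and 0.0529 in the naive, 24h and 7d mesenteric libraries. Both had their highest level of the 6 libraries in OM 7d and their lowest in MY 7d. Elane, the neutrophil elastase of primary granules, was at 118 and 235 FPKM, a log2 difference of 0.98. The remaining genes that passed stayed closer, with Mmp9 at 64.8 and 64.1 FPKM, Mmp8 at 38.4 and 35.4 and Retnlg at 400 and 501. The receptors Csf3r (6.21 to 9.36 FPKM) and Cxcr2 (5.14 to 3.43 FPKM) were below the filter. The summed level of the list was 7674 FPKM in OM naive, 18028 in OM 24h and 20108 in OM 7d, and the part of neutrophil RNA in other results was not tested.

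Genes of mesothelial and gonadal type lay far higher. Mesothelial cells form the epithelium-like lining of the omentum. The study stained the proteins of Krt8 and Krt18 to find ID8 cells, so these genes do not separate mesothelial from injected cells. Of 12 measured mesothelial genes 11 passed the filter and all 11 were higher, between 2.28 and 3.73 in log2 difference, although 8 of them passed only through OM 7d. The median was 2.82 over all 12, beside −0.087 over all genes. Krt19, a keratin, stood at 25.4 FPKM in OM naive, 406 in OM 24h and 349 in OM 7d. Upk3b, a uroplakin of mesothelium, stood at 23.7 FPKM in OM naive, 215 in OM 24h and 259 in OM 7d. Msln, mesothelin, stood at 5.27 FPKM in OM naive, 53.8 in OM 24h and 59.2 in OM 7d. Wt1, the transcription factor of mesothelium and gonad, stood at 2.16 FPKM in OM naive, 25.2 in OM 24h and 38.1 in OM 7d. None of the 12 exceeded 0.823 FPKM in a mesenteric library. Krt19, Krt8 and Krt18 were somewhat higher in OM 24h than in OM 7d, while Krt7, Lrrn4 and Rspo1 had their highest level in OM 7d, as in Rspo1, a secreted activator of Wnt signalling, at 7.23 FPKM in OM naive, 9.8 in OM 24h and 60.4 in OM 7d. The list summed to 116 FPKM in OM naive, 1059 in OM 24h and 1147 in OM 7d.

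Amhr2, the receptor of anti-Mullerian hormone, had the highest log2 difference of all genes (chr15:102275798-102285061, plus strand). It stood at 0.397 FPKM in OM naive, 223 in OM 24h and 315 in OM 7d and at no more than 0.114 in the mesentery. Gata4, a transcription factor of the gonadal soma and the heart (chr14:63817759-63890529, minus strand), was listed at 0 in OM naive and stood at 25.9 in OM 24h and 33.1 in OM 7d. Nr5a1, the steroidogenic factor, stood at 0.0135 FPKM in OM naive, 8.85 in OM 24h and 14.1 in OM 7d. Inha, the alpha subunit of inhibin, was listed at 0 in OM naive and stood at 5.26 in OM 24h and 24.1 in OM 7d. All 5 of the 9 gonadal genes that passed the filter were higher, and all 5 passed only through OM 7d. Foxl2 (1.2 FPKM in OM 7d), Pax8, Lhx9 and Emx2 stayed below 2 FPKM in every library, and the median over all 9 was 2.67. The list summed to 1.31 FPKM in OM naive, 272 in OM 24h and 400.4 in OM 7d.

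Aldh1a1, which oxidises retinal to retinoic acid (chr19:20676451-20717952, plus strand), stood at 1.83 FPKM in OM naive, 44.6 in OM 24h and 173 in OM 7d. Cpe, a carboxypeptidase that trims peptide hormones, stood at 4.67 FPKM in OM naive, 133 in OM 24h and 213 in OM 7d. Ldhb, the lactate dehydrogenase subunit of oxidative tissues, stood at 5.67 FPKM in OM naive, 181 in OM 24h and 213 in OM 7d. Gstm2, a glutathione transferase, stood at 7.08 FPKM in OM naive, 119 in OM 24h and 254 in OM 7d. All of them were already higher in OM 24h and higher again in OM 7d, and the 2 injected libraries share the naive one as their reference. Of the other genes with the highest log2 differences, Cst12, Akr1cl, Tspan8 and Tmem184a were listed at 0 in OM naive and stood at 90.5, 51.9, 51.3 and 33.6 FPKM in OM 7d. The galectins Lgals2 (0.149 to 59.8 FPKM) and Lgals7 (2.76 to 132 FPKM), the sodium pump regulator Fxyd3 (0.285 to 47.2 FPKM) and Gm11744 (0.058 to 51.1 FPKM) belonged to the same 15 genes. Mesothelial and gonadal genes were thus present in RNA of a CD45+CD11b+F4/80+ gate. The part of mesothelial cells, ID8 cells or other cells was not tested.

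Fibroblast genes lay higher by smaller steps. Of 10 genes 7 passed the filter, 3 were higher and none lower, against 8.44% and 2.38% of all genes. The median was 0.80. Dcn, the collagen-binding proteoglycan decorin, stood at 189 FPKM in OM naive, 109 in OM 24h and 782 in OM 7d and at no more than 2.1 in the mesentery. Col3a1, a fibrillar collagen, stood at 80.5 FPKM in OM naive, 62.8 in OM 24h and 242 in OM 7d. Col1a2, of the same class, stood at 21.3 FPKM in OM naive, 17.3 in OM 24h and 74.6 in OM 7d. All of them were lower in OM 24h than in OM naive and higher in OM 7d than in either. Col1a1 (43.7 to 77 FPKM) was under 2-fold higher, and Pdgfra (1.29 to 3.74 FPKM) was below the filter. The list summed to 701 FPKM in OM naive, 595 in OM 24h and 1605 in OM 7d.

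Lymphocyte genes were present in the sorted cells and mostly lay lower or level. Of 12 B cell genes 9 passed the filter, 3 were lower and none higher, against 2.38% and 8.44% of all genes. The median was −0.71. Faim3, the Fc receptor for IgM, stood at 474 FPKM in OM naive, 55.7 in OM 24h and 165 in OM 7d. Cd79a, a chain of the B cell receptor, stood at 1551 FPKM in OM naive, 392 in OM 24h and 983 in OM 7d. Blk (156 to 73.9 FPKM) and Fcer2a (20.2 to 7.31 FPKM) were the other lower genes, and the B cell genes that passed had their lowest level of the omental libraries in OM 24h. Of 6 plasma cell genes 5 passed and none was 2-fold apart (median −0.18). Of 12 T cell genes 7 passed and none was 2-fold apart (median 0.018), with Cd3e at 28 and 28.4 FPKM. Of 10 NK cell genes 8 passed, 3 were lower and none higher (median −0.94). Gzma, a granzyme, was the lowest of these at 142 FPKM in OM naive, 2.37 in OM 24h and 57.4 in OM 7d, followed by Klre1 (18.2 to 7.79 FPKM) and Ncr1 (26.2 to 11.7 FPKM). Of 12 dendritic cell genes 8 passed, 2 were lower and none higher (median −0.39). They were the lectins Cd209a (264 to 82 FPKM) and Mgl2 (127 to 57.4 FPKM), while Flt3, the cytokine receptor of the lineage, was at 24.6 and 17.6 and Xcr1 was below the filter. The summed levels of the B, T and NK cell lists were 4833, 524 and 520.1 FPKM in OM naive and 2836, 387 and 297 in OM 7d.

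The remaining cell types were weakly represented. Of 8 mast cell genes 5 passed and none was 2-fold apart (median 0.20). Of 7 eosinophil genes only Il5ra passed (23.2 to 15 FPKM), Epx was listed at 0 in both libraries, and Ccr3 (0.172 to 8.86 FPKM) was below the filter. Of 8 endothelial genes only Pecam1 passed (37.8 to 23.9 FPKM), and Cdh5, the cadherin that defines endothelium, was below 1 FPKM in both libraries. Of 7 adipocyte genes 2 passed, Fabp4 (31.6 to 58.3 FPKM) and Cfd (13.5 to 4.27 FPKM), the latter lower, and Adipoq was at 1.81 and 0.275 FPKM. Genes of the exocrine pancreas, which lies next to the omentum, made up 5 of the 15 genes with the lowest log2 differences, namely Clps, Ctrb1, Prss2, Cela2a and Ctrl. Clps, colipase, stood at 27.9 FPKM in OM naive, 27 in OM 24h and 1.85 in OM 7d. Cela2a, an elastase, stood at 40.8 FPKM in OM naive, 33.2 in OM 24h and 4.4 in OM 7d. Ctrb1 (19.5 to 1.2 FPKM), Prss2 (22.9 to 1.88 FPKM) and Ctrl (11 to 0.88 FPKM) are digestive proteases or their precursors. Also among the 15 was Rps27rt, a ribosomal protein retrogene (12.7 to 0.525 FPKM), which had no position in the annotation used. Of 12 acinar genes 7 passed, 6 were lower and none higher, and the median over all 12 was −2.03. All 6 lower genes passed only through OM naive and so had to lie lower. Their summed level was 189 FPKM in OM naive, 169 in OM 24h and 34.3 in OM 7d, and the part of pancreatic RNA in other results was not tested. Of 5 measured erythroid genes 3 passed and 2 were higher. Hba-a1 (0.0498 to 40.7 FPKM) shares reads with Hba-a2, and the sum of both was 18.6 FPKM in OM naive, 0.329 in OM 24h and 66.5 in OM 7d. Hbb-b1 stood at 14.8 FPKM in OM naive, 0.0437 in OM 24h and 66.4 in OM 7d.

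**Figure D3:**
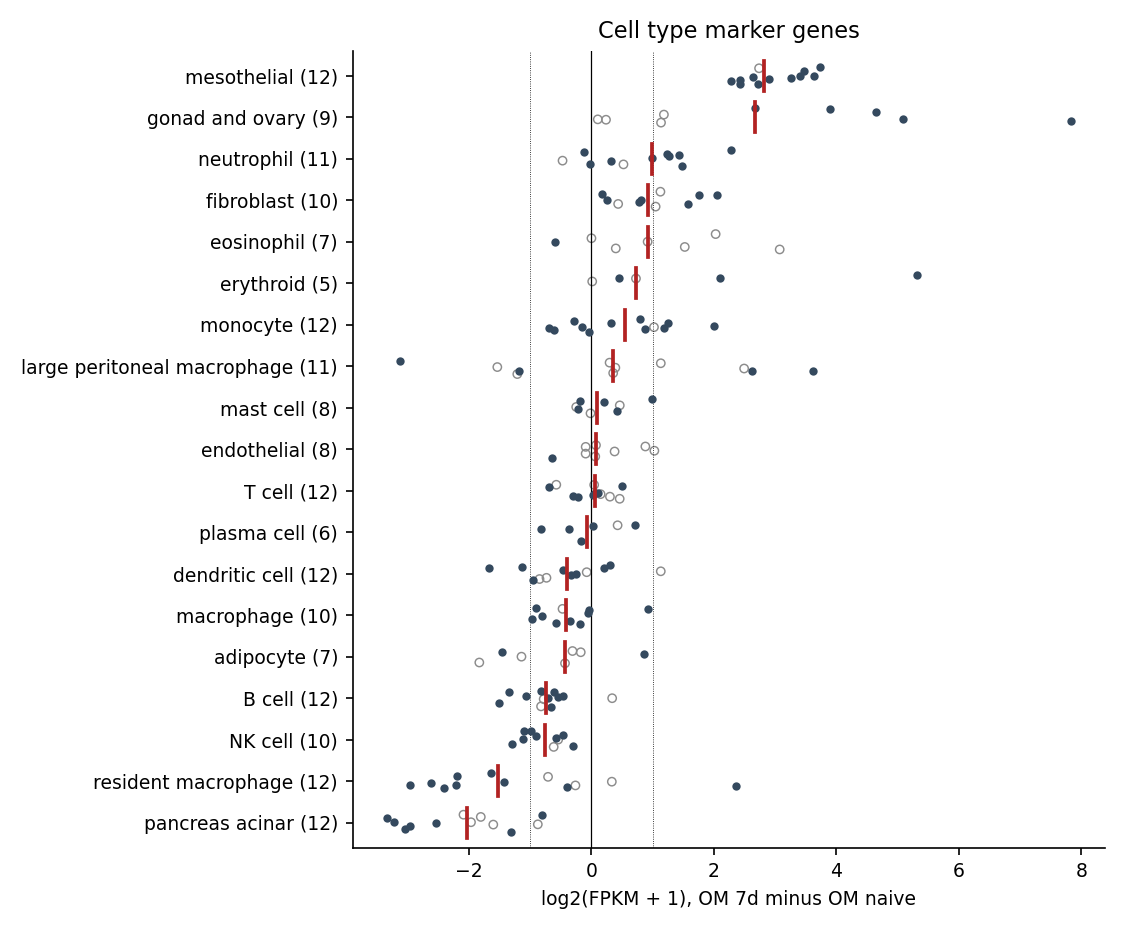
Log2 difference between OM 7d and OM naive for the genes of each cell type list, with the number of measured genes in brackets. Filled points are genes that passed the filter, open points those that did not, the red bar is the median of all measured genes and the dotted lines mark a 2-fold difference. Mesothelial and gonadal genes lie on the right and resident macrophage and pancreatic genes on the left.

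Chemokines draw leukocytes into a tissue, and macrophages are a main source of them. Of 36 chemokine ligand genes 22 passed the filter, 6 were higher and 2 lower, against 8.44% and 2.38% of all genes. The median was 0.45, or 0.16 over all 36, and 5 of the 22 passed only through OM 7d. Ccl1, a ligand of Ccr8, was listed at 0 in OM naive and OM 24h and stood at 10.6 FPKM in OM 7d. Cxcl10, a ligand of Cxcr3 on T and NK cells, stood at 12.1 FPKM in OM naive, 124 in OM 24h and 116 in OM 7d and at 35.1, 21.2 and 13.9 in the naive, 24h and 7d mesenteric libraries. Its level was 9.59-fold higher in OM 7d than in OM naive, and Cxcl9, which binds the same receptor, was at 8.2 FPKM in OM naive, 32.3 in OM 24h and 32.2 in OM 7d. Ccl17 and Ccl22 are ligands of Ccr4 on regulatory and helper T cells. Ccl17 stood at 20.9 FPKM in OM naive, 66.6 in OM 24h and 111 in OM 7d. Ccl22 stood at 19.9 FPKM in OM naive, 25 in OM 24h and 62.7 in OM 7d. Both had their highest omental level in OM 7d, and Ccl22 was far higher in the mesentery (199 FPKM in MY naive). The monocyte attractant Ccl12 was at 7.55 FPKM in OM naive, 182 in OM 24h and 26.3 in OM 7d, and its relatives Ccl2 (29 to 55.2 FPKM) and Ccl7 (23.7 to 26.4 FPKM) were under 2-fold higher. Ccl12, Ccl2, Ccl7, Ccl8 and Cxcl2 were highest in OM 24h, where Ccl8 stood at 681 FPKM against 42.2 in OM naive and 33.1 in OM 7d.

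On the lower side were Pf4, given above, and Ccl24, a chemokine for eosinophils, at 16.6 FPKM in OM naive, 57.3 in OM 24h and 4.99 in OM 7d. Ccl6, the highest chemokine of OM naive, stood at 777 FPKM in OM naive, 1901 in OM 24h and 489 in OM 7d and at 34.3, 282 and 81.7 in the naive, 24h and 7d mesenteric libraries. Its log2 difference of −0.67 was under 2-fold, and Ccl9 (−0.61) and Ccl5 (−0.43) were lower by similar amounts. Ccl6 remained the highest chemokine gene of OM 7d. Of 21 chemokine receptor genes 13 passed, 1 was higher and 1 lower, with a median of −0.11. Ccr8, the receptor of Ccl1, stood at 3.17 FPKM in OM naive, 0.777 in OM 24h and 10.8 in OM 7d. Ackr2, a receptor that removes inflammatory chemokines without signalling, stood at 14.4 FPKM in OM naive, 1.63 in OM 24h and 5.8 in OM 7d. Ccr1, through which Ccl6 is thought to act, was at 65.7 and 48.2 FPKM in OM naive and OM 7d. Cxcr3, the receptor of Cxcl9 and Cxcl10, was at 31.2 and 22.7.

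Cytokines and mediators of inflammation were mixed. Of 19 genes 12 passed the filter, 4 of them only through OM 7d, and 5 were higher and 1 lower. Among all genes 8.44% were higher and 2.38% lower, and the median of the list was 0.37 over all 19. Il12b, a subunit of interleukins 12 and 23, stood at 2.92 FPKM in OM naive, 1.54 in OM 24h and 12.2 in OM 7d. Osm, oncostatin M, stood at 14.2 FPKM in OM naive, 76.2 in OM 24h and 37.6 in OM 7d. Il1rn, the interleukin 1 receptor antagonist, stood at 11 FPKM in OM naive, 60.4 in OM 24h and 28.4 in OM 7d. The decoy receptor Il1r2 (4.36 to 10.3 FPKM) and the macrophage growth factor Csf1 (4.17 to 11.4 FPKM) were the other higher genes. Tgfb1, a cytokine that restrains inflammation, was lower at 119 FPKM in OM naive, 71.8 in OM 24h and 43.2 in OM 7d, and it was also lower in the mesentery 7 d after injection (94.2 to 59.6). Il1b (112 to 163 FPKM) and Tnf (11.1 to 15 FPKM) were under 2-fold higher. Nos2, the inducible nitric oxide synthase, was below 1 FPKM in every library.

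Genes of alternative activation, the programme that interleukins 4 and 13 induce, went in both directions. Of 13 genes 10 passed, 2 were higher and 3 lower, with a median of −0.31. Retnla, Mrc1 and Mgl2 were the lower genes. Chil3 and Tgm2, a transglutaminase, were the higher ones, Tgm2 at 16 FPKM in OM naive, 137 in OM 24h and 75.2 in OM 7d. Arg1, arginase 1, stood at 0.463 FPKM in OM naive, 213 in OM 24h and 5.62 in OM 7d and at no more than 3.34 in the mesentery. Its level in OM 7d was below the filter, and its value in OM 24h stood far above both. Il4ra, the receptor chain for both cytokines, was at 50.1 and 51.2 FPKM in OM naive and OM 7d.

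Interferon response genes lay higher. Interferons act through transcription factors that bind near target genes, and the type I and type II responses share many targets. Of 20 type I response genes 13 passed the filter, 7 were higher and none lower, with a median of 1.10, or 0.91 over all 20. Of 16 interferon-gamma response genes 13 passed, 6 were higher and none lower, with a median of 0.90, or 0.96 over all 16. Among all genes 8.44% were higher and 2.38% lower. In each list 4 genes passed only through OM 7d. Isg15, a ubiquitin-like protein, stood at 23.4 FPKM in OM naive, 74.1 in OM 24h and 57 in OM 7d and at 69.6, 41.5 and 26.1 in the naive, 24h and 7d mesenteric libraries. Oasl2, of the oligoadenylate synthase family, stood at 11.7 FPKM in OM naive, 41.6 in OM 24h and 44.3 in OM 7d. Ifit1, which binds viral RNA caps, stood at 3.36 FPKM in OM naive, 11.2 in OM 24h and 12.9 in OM 7d. These levels in OM 24h and OM 7d were both above OM naive. Irf7 (27.9 to 61.1 FPKM), Ifit2 (3.68 to 11.8 FPKM), Ifit3 (6.86 to 19.5 FPKM) and Ifi204 (10.9 to 24.6 FPKM) were the other higher genes of the type I list. Ifi27l2a, the highest gene of that list, was at 468 and 471 FPKM.

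Among the interferon-gamma genes, Iigp1, an immunity-related GTPase that attacks parasite vacuoles, had the highest log2 difference (2.78), at 2.61 FPKM in OM naive, 15.3 in OM 24h and 23.8 in OM 7d. Irf1, a transcription factor of the response, stood at 87.2 FPKM in OM naive, 88.5 in OM 24h and 176 in OM 7d. Igtp, a GTPase of the same family as Iigp1, stood at 31.8 FPKM in OM naive, 36.9 in OM 24h and 70.3 in OM 7d. Irgm2, also of that family, stood at 7.79 FPKM in OM naive, 13 in OM 24h and 18.8 in OM 7d. Irf1 and Igtp were nearly level in OM naive and OM 24h, and among the omental libraries all of them were highest in OM 7d. In the mesentery Irf1 was higher than in OM 7d, at 229, 337 and 227 in the naive, 24h and 7d mesenteric libraries. Tgtp2 (5.63 to 18.3 FPKM) shares reads with Tgtp1, and the sum of both was 7.31 FPKM in OM naive and 27.8 in OM 7d. Gbp2 (56.2 to 93.6 FPKM) and Socs1 (52.4 to 94.2 FPKM) were under 2-fold higher, and Gbp3 (56.9 to 56 FPKM) was level. Cxcl9, given above with the chemokines, was the sixth higher gene of this list.

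Promoters of these genes are shown because the genes lay higher together and because interferon-responsive elements have a known form, a pair of GAAA steps. The letters GAAA, any 2 bases and GAAA again were searched on both strands of the RefSeq promoters of GRCm38.p6, from 250 bases before to 50 bases after each gene start. They occurred in 17 of the 26 interferon genes with a RefSeq promoter (65.4%). Of the higher genes with a promoter 23 of 420 held them (5.48%), and of the lower genes 6 of 124 (4.84%). A gene counted if any of its promoters matched. All 32851 promoters were counted singly, and 1131 of them matched (3.44%), so genes with more promoters had more chances to match. A match describes letters in the window and is not a measured binding site. Among all 7099 genes compared, 235 of the 5452 with a promoter held it (4.31%). The windows of 60 bases below are printed 5′ to 3′ on the strand of the gene, with the matched letters of either strand in capitals. They lie at chr4:156200856-156200915 (minus strand) for Isg15, at chr19:34640769-34640828 (plus strand) for Ifit1, at chr19:34583365-34583424 (plus strand) for Ifit3, at chr11:58199496-58199555 (plus strand) for Igtp and at chr11:58214888-58214947 (plus strand) for Irgm2.
Isg15: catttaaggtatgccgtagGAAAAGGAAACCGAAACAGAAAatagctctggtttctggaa
Ifit1: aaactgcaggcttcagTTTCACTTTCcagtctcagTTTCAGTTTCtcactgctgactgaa
Ifit3: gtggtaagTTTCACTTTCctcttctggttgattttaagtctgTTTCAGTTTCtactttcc
Igtp: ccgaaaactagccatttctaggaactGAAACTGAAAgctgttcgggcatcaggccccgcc
Irgm2: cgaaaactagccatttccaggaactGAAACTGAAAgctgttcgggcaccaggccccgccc

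In Isg15 the window held 3 overlapping matches, and in Ifit1 and Ifit3 it held 2 each. Igtp and Irgm2 held 1 match each, of the same letters.

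**Figure D4:**
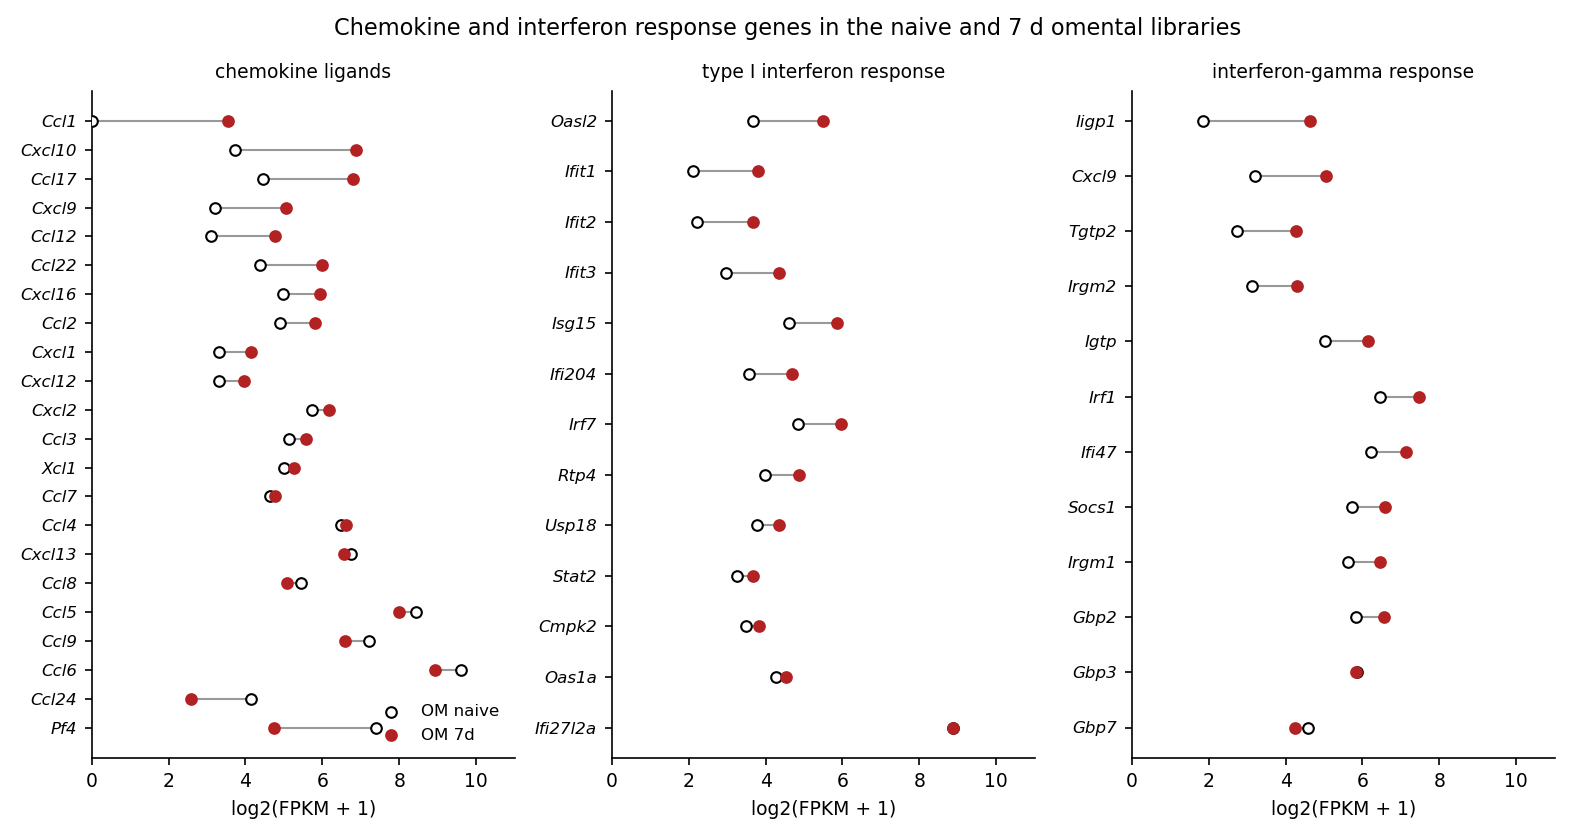
Level in OM naive (open) and OM 7d (red) as log2(FPKM + 1) for the genes of the chemokine ligand, type I interferon and interferon-gamma lists that passed the filter, sorted by their difference, with 12 of the 13 interferon-gamma genes drawn. Cxcl10, Ccl17, Oasl2 and Iigp1 lie to the right in OM 7d, Pf4 and Ccl24 to the left, and Ifi27l2a and Gbp3 are level.

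Genes of antigen presentation lay level or lower. MHC class II molecules show peptides to helper T cells. Of 11 class II genes 10 passed, none was 2-fold apart, and all 10 lay lower, between −0.84 and −0.19 with a median of −0.54. H2-Ab1 stood at 10226 FPKM in OM naive, 15011 in OM 24h and 7017 in OM 7d. Cd74, the invariant chain, stood at 26905 in OM naive and 15010 in OM 7d and was listed at 0 in OM 24h, a value that stands against the high class II genes of that library. Ciita, the master regulator of the class, was at 53.2 and 37.7 FPKM. H2 genes are similar in sequence, so single members are uncertain. All 8 class II genes with a RefSeq promoter held the letters ATTGG, the inverted CCAAT box, on either strand. They were held by 37.4% of all single promoters and, in any promoter, by 42.8% of the genes among the 7099 that had one. Of 14 class I presentation genes 12 passed and none was 2-fold apart (median −0.19), and Calr, a chaperone of class I assembly, was the lowest (673 to 348 FPKM). Of 14 checkpoint and costimulation genes 9 passed and none was 2-fold apart (median −0.071), with Cd274, which encodes PD-L1, at 27 and 27.6 FPKM. Of 15 Toll-like receptor pathway genes 8 passed and none was 2-fold apart (median −0.041).

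Complement genes went both ways. Of 16 measured genes 15 passed, 5 were higher and 4 lower, against 8.44% and 2.38% of all genes. The median was −0.24. The higher ones were C1ra, C2, C3, Cfb and Serping1, which are made by many stromal cells as well as by macrophages. C3, the central component, stood at 124 FPKM in OM naive, 117 in OM 24h and 401 in OM 7d. Cfb, factor B of the alternative pathway, stood at 30.4 FPKM in OM naive, 131 in OM 24h and 105 in OM 7d. Serping1, which inhibits C1 proteases, stood at 59.8 FPKM in OM naive, 11.8 in OM 24h and 227 in OM 7d and at no more than 1.31 in the mesentery. C3 and Serping1 were lower in OM 24h than in OM 7d, while Cfb was higher there. The lower ones were Vsig4, Cfp, Cfd and C4b. Cfp, properdin, which stabilises the alternative pathway convertase, stood at 477 FPKM in OM naive, 759 in OM 24h and 159 in OM 7d.

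Lysosomal and scavenger genes were mostly level between the 2 libraries. Of 18 lysosomal genes 17 passed, 2 were higher and none lower, with a median of −0.15. Ctsl, cathepsin L, stood at 20.3 FPKM in OM naive, 146 in OM 24h and 88.3 in OM 7d. Cd63, a tetraspanin of lysosomes and exosomes, stood at 64 FPKM in OM naive, 489.8 in OM 24h and 266 in OM 7d. Cathepsins B, D and S were at 229.8 and 201, 261 and 234, and 892 and 694 FPKM in OM naive and OM 7d. Of 17 genes of lipid handling and scavenging 13 passed, 2 were higher and none lower (median −0.12). Spp1, osteopontin, stood at 7.35 FPKM in OM naive, 219.6 in OM 24h and 41.9 in OM 7d. Trem2, a lipid receptor of macrophages, stood at 7.5 FPKM in OM naive, 191 in OM 24h and 18.9 in OM 7d. Both were far higher in OM 24h than in either library compared, as was Apoe at 2379.9 FPKM in OM naive, 17332 in OM 24h and 1944 in OM 7d. Of 11 iron and heme genes 9 passed, 1 was higher (Hp) and 1 lower (Cd163), with a median of −0.47. Hmox1, heme oxygenase, was at 29.5 and 15.4 FPKM, and the iron-binding Lcn2 at 370.1 and 724.

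Matrix genes lay higher together with the mesothelial and fibroblast genes. Of 21 genes 11 passed, 9 were higher and none lower, against 8.44% and 2.38% of all genes. The median was 2.12, or 2.03 over all 21, and 5 of the 11 passed only through OM 7d. Sparc, a collagen-binding glycoprotein, stood at 43.1 FPKM in OM naive, 231 in OM 24h and 311 in OM 7d and at no more than 1.77 in the mesentery. Col6a1, a collagen of microfibrils, stood at 11.1 FPKM in OM naive, 30.6 in OM 24h and 68.2 in OM 7d. Mmp14, a membrane collagenase that macrophages also make, stood at 7.99 FPKM in OM naive, 86.3 in OM 24h and 46.3 in OM 7d and between 7.45 and 9.56 in the mesentery. Col4a1, Col4a2, Col6a2, Bgn, Mgp and Timp3 were the other higher genes. Fn1, fibronectin, was the exception at 94.2 FPKM in OM naive, 279 in OM 24h and 57.6 in OM 7d. The sums of the mesothelial and fibroblast lists lay the same way as these genes, and the part of those cells was not tested. Of 22 adhesion genes 16 passed, 2 were higher and 1 lower (median −0.46). Itgb5, an integrin chain, stood at 9.07 FPKM in OM naive, 192 in OM 24h and 37 in OM 7d. Itga6, a chain of laminin receptors, stood at 5.62 FPKM in OM naive, 23.4 in OM 24h and 17.6 in OM 7d. Icam2 was the lower gene. Of 9 retinoid genes 6 passed, 4 were higher and none lower, with a median of 1.19 over all 9, and 3 of the 6 passed only through OM 7d. Beside Aldh1a1 they were Stra6 (0.561 to 44.5 FPKM), the receptor that takes up vitamin A, Rdh10 (2.28 to 21 FPKM), which makes retinal from retinol, and Rarres2 (27.7 to 64.4 FPKM), which encodes chemerin. Aldh1a2, the retinoic acid enzyme of mesothelium and dendritic cells, was at 35.4 and 31.2 FPKM.

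Transcription factors of macrophages were mostly level. Of 18 genes 14 passed, 1 was higher (Gata6) and 1 lower (Klf2), with a median of −0.21. Spi1, which encodes PU.1, was at 377 and 345 FPKM. Klf2, a factor that keeps myeloid cells quiet, stood at 714 FPKM in OM naive, 301 in OM 24h and 331 in OM 7d. Cebpb (471 to 735 FPKM) was under 2-fold higher and Batf3 (67.2 to 34.2 FPKM) under 2-fold lower. All 22 immediate early genes passed, 2 were higher and 1 lower, with a median of 0.37. Ier3, which protects from cell death, stood at 82.3 FPKM in OM naive, 491 in OM 24h and 305 in OM 7d. Socs3, which restrains STAT3, stood at 112 FPKM in OM naive, 212 in OM 24h and 257 in OM 7d. Fos was at 729.8 and 1129 FPKM, and between 6.37 and 9.52 in the mesentery. All 13 heat shock genes passed, 1 was higher and 2 lower (median −0.30). Hspb1, a small heat shock protein, stood at 19.9 FPKM in OM naive, 68.4 in OM 24h and 196 in OM 7d. The near-identical Hspa1a and Hspa1b were the lower ones, with a sum of 61.3 FPKM in OM naive and 17.4 in OM 7d.

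Metabolic and cell cycle genes were mostly level. Of 20 glycolysis and hypoxia genes 19 passed, 1 was higher and 1 lower, with a median of 0.12. Vegfa, the growth factor of vessels, stood at 2.42 FPKM in OM naive, 11.7 in OM 24h and 11.1 in OM 7d. Adm, adrenomedullin (chr7:117771175-117773331, plus strand), stood at 117 FPKM in OM naive, 8.87 in OM 24h and 13.9 in OM 7d and was among the 15 genes with the lowest log2 differences. Both are targets of hypoxia-inducible factors, and they lay in opposite directions. All 18 genes of oxidative phosphorylation passed, none was 2-fold apart, and the median was −0.028. Of 21 cell cycle genes 18 passed, 1 was higher and none lower (median 0.30), with Cdc20, an activator of mitotic exit, at 13.4 FPKM in OM naive, 34 in OM 24h and 31 in OM 7d and Mki67 at 3.82 and 4.28, below the filter. None of the 14 housekeeping genes was 2-fold apart, and their median was −0.22.

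**Figure D5:**
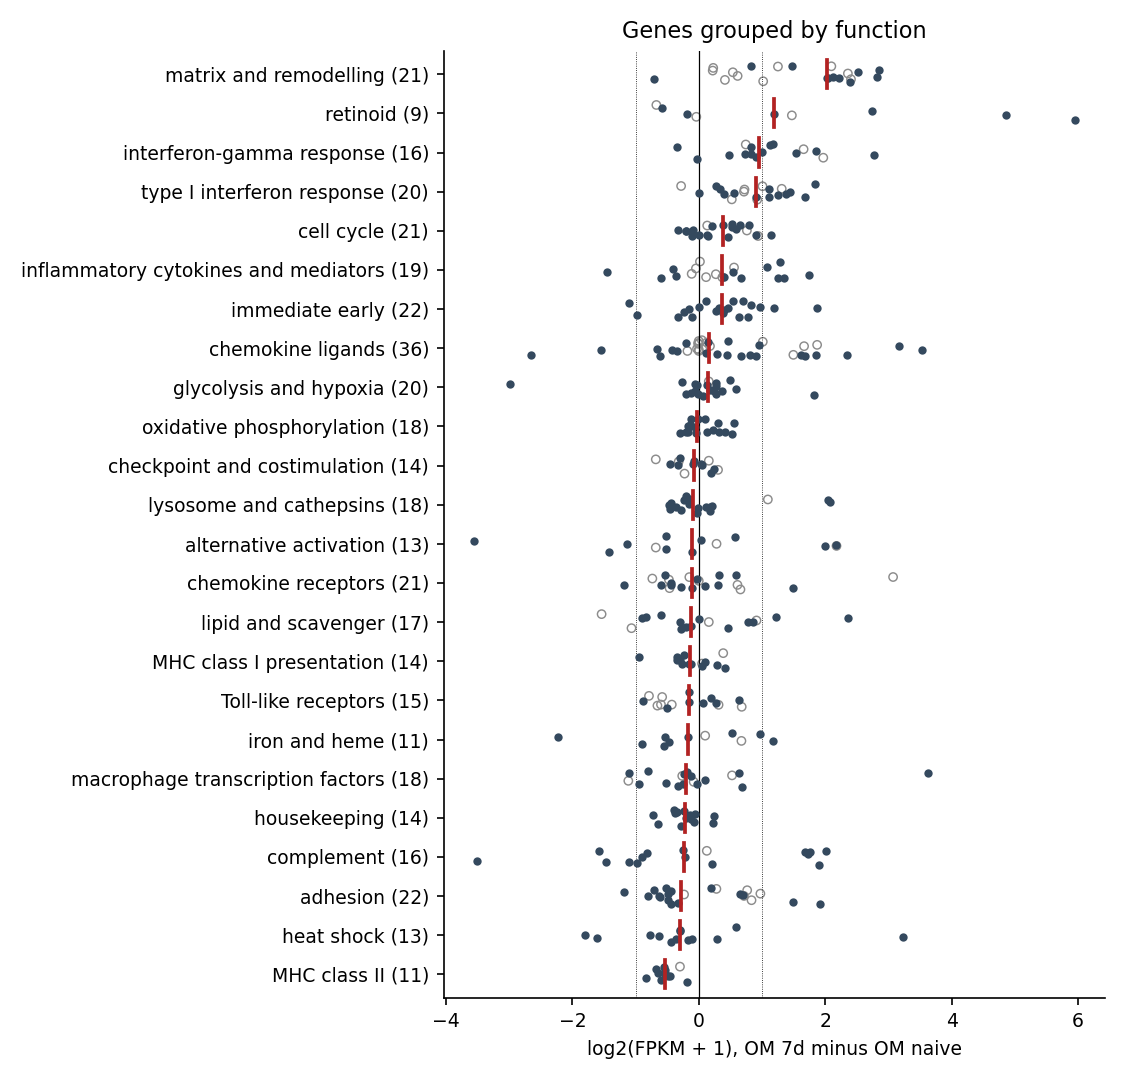
Log2 difference between OM 7d and OM naive for the genes of each functional list, with the number of measured genes in brackets. Symbols are as in the plot of cell type lists, and the matrix, retinoid and interferon lists lie on the right while the metabolic lists lie close to 0 and the MHC class II list to the left of it.

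Macrophages of the mesenteric fat, a depot without milky spots, gave a comparison with no library in common. Of 6806 genes at 10 FPKM or more in MY naive or MY 7d, 35 (0.514%) were at least 2-fold higher in MY 7d and 179 (2.63%) were at least 2-fold lower. Higher in both tissues were 6 genes, which is 1% of the omental and 17.1% of the mesenteric list. Lower in both were 28 genes, or 16.6% of the omental and 15.6% of the mesenteric list. Among all 7099 genes of the omental set, 28 (0.394%) were higher and 111 (1.56%) lower in MY 7d. In OM 7d, 8.44% of that set were higher and 2.38% lower. Among the genes lower in both were Lars2 and Was, named after their values were seen. Was, which encodes an actin regulator of blood cells, stood at 51.7, 20.8 and 14.9 FPKM in the naive, 24h and 7d omental libraries and at 40.6, 12.3 and 12.8 in the naive, 24h and 7d mesenteric libraries. Lars2, which overlaps a sequence resembling ribosomal RNA, stood at 619.6, 148 and 106 and at 419.7, 348 and 83.6 in the naive, 24h and 7d mesenteric libraries. For the resident macrophage list the omental median over all 12 genes was −1.53 and the mesenteric one −0.18. For the type I interferon list the medians over all 20 were 0.91 and −0.63, and for the mesothelial list 2.82 and 0.029. The differences between the tissues were not tested, since each rests on 1 library a side.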

How the data were processed

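RNA of sorted macrophages from 2 tissues at 3 time points was sequenced, 1 library per condition. Per the labels and methods, the authors checked reads with FastQC 0.11.4, aligned them with STAR 2.4.2a to the mm9 assembly, using UCSC gene models, and deposited FPKM per gene symbol from Cufflinks. The study also counted reads for DESeq2, and those counts were not used here. FPKM are not counts, so no count test was run, and with 1 library a side there is no test at all. The study gives only a range of reads per sample, so the depth of each library is unknown. The relative depth came from the commonest ratio of FPKM below 0.1.

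Differences were taken on log2(FPKM + 1) from the deposited values with Python 3.11.15, numpy 2.4.6 and pandas 2.3.3, for genes with FPKM of at least 10 in OM 7d or OM naive. A gene was called at 2-fold. Named genes were the 15 largest rises and falls, short RNAs left out, and members of 19 marker and 24 functional lists (573 genes, 569 matched, and Ly6g, Muc16, Hbb-b2 and C1s had no match). Members and lists were chosen with earlier results of these data known. Positions are from NCBIM37 and GENCODE M1, where 29 of the 30 named genes were found. A listed gene that is counted but not named is not reported here. Alternatives were pseudocounts of 0.1 and 5, 2 rescalings, 4 filters, and leaving out genes of the lists of other cell types.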

Additional observations from a re-analysis of the deposited data

Results flagged for a closer look

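For 9 named genes the omental and the mesenteric library pairs differed by at least 2-fold in opposite directions between naive and 7 d. With 1 library per condition, the difference between the tissues was not tested. The log2 difference was 1.47 in the omentum and −3.13 in the mesentery for S100a8, and 1.23 and −3.58 for S100a9. It was 2.27 and −6.52 for Camp, 1.43 and −6.52 for Ngp, and 1.27 and −4.83 for Ltf. These 5 are granule and calgranulin genes of the neutrophil list. The summed list went from 7674 to 20108 FPKM in the omentum and from 901 to 243 in the mesentery. Cxcl10 had 3.16 and −1.28, and Isg15 had 1.25 and −1.38, both genes of the interferon response. Faim3, of B cells, went the other way with −1.51 and 1.36. Hba-a1 had 5.31 and −4.93, but the sum of Hba-a1 and Hba-a2 was 45.9 FPKM in MY naive and 108 in MY 7d, which is the opposite direction from Hba-a1 alone.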

How the results depend on the processing

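With no replicates, a count was taken as unchanged within 1.5 times and a log2 value within 0.58. No paired analysis was possible because only 1 library per group exists. The higher and lower counts became 632 and 188 with a pseudocount of 0.1, 479 and 111 with 5, 633 and 155 after rescaling by the median ratio, 690 and 123 after rescaling to 1000000, 363 and 117 at 20 FPKM, 1432 and 256 at 1 FPKM and 1432 and 256 with no filter. They were 578 and 165 for genes above 0 in both libraries and 573 and 154 without genes of the lists of other cell types. No gene or list median that was past 2-fold as reported changed sign in the settings run, while list medians under 2-fold did, as given below. Of 97 listed or named genes called higher and 40 called lower, 88 and 31 were called in every pseudocount and scaling. List medians that moved were with a pseudocount of 0.1 gonad and ovary (7.92), with a pseudocount of 5 resident macrophage (−1.51), pancreas acinar (−1.98), gonad and ovary (2.54), after rescaling to 1000000 gonad and ovary (5.46), at 1 FPKM resident macrophage (−1.53), eosinophil (1.52), endothelial (0.38), adipocyte (−1.14), pancreas acinar (−2.03), gonad and ovary (3.90), erythroid (1.41), retinoid (1.33), at 20 FPKM adipocyte (0.86), with no filter resident macrophage (−1.53), eosinophil (0.92), endothelial (0.068), pancreas acinar (−2.03), gonad and ovary (2.67), erythroid (0.73), retinoid (1.19), for genes above 0 in both gonad and ovary (3.90), and the cause was not tested beyond the genes each filter admits. The eosinophil, endothelial and adipocyte medians, which changed sign with the filter, rested on 1 or 2 genes. The further a value lies below 1 FPKM, the fewer reads it rests on. The size of a difference that starts from such a value, as for the gonadal genes, Ccl1 and Wnt6, is therefore uncertain.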

Other observations

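Some gene families outside the lists above were counted after their values were seen, so they carry no test. Over all 7099 genes 8.44% were higher. All 6 insulin-like growth factor binding proteins that passed the filter were higher, 3 of them passing only through OM 7d. The median log2 difference was 2.06 over all 7 measured. Igfbp2 stood at 3.85 FPKM in OM naive, 20.2 in OM 24h and 137 in OM 7d. Igfbp6 stood at 77.7 FPKM in OM naive, 128 in OM 24h and 514 in OM 7d, and Igfbp7 was at 87.7 and 369 FPKM in OM naive and OM 7d. These proteins hold growth factors in the extracellular space, and Igfbp2 and Igfbp6 were below 1 FPKM in every mesenteric library. Igfbp7 was at 34.3, 51.3 and 33.6 in the naive, 24h and 7d mesenteric libraries. Igfbp4 (89.2 to 222 FPKM) was at 162, 96.4 and 268 in the naive, 24h and 7d mesenteric libraries. Of 24 glutathione transferase genes 14 passed, 6 of them only through OM 7d, and 8 were higher, with a median log2 difference of 0.37 over all 24. Examples are Gstm1 (37.9 to 406 FPKM) and Mgst1 (61.1 to 309 FPKM). The widely expressed Gstp1 (110.4 to 132 FPKM) and Gsto1 (65.4 to 60.5 FPKM) were level. Of 19 Wnt ligand genes 4 passed, each only through OM 7d, and all 4 were higher. The median over all 19 was 0.48. Wnt6 stood at 0.267 FPKM in OM naive, 28.5 in OM 24h and 32.8 in OM 7d. Wnt4 stood at 1.39 FPKM in OM naive, 7.54 in OM 24h and 22.3 in OM 7d. Wnt10a (0.486 to 13.9 FPKM) and Wnt11 (8.34 to 22.4 FPKM) were the others. Mesothelial and gonadal genes lay the same way as these families, and their part was not tested.

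Genes of neutrophil primary granules, which are transcribed mainly in early precursors, were present in both libraries. The 6 genes counted were Mpo, Elane, Prtn3 and Ctsg, with Ms4a3 and Cebpe, which do not encode granule proteins. Prtn3, Ctsg, Ms4a3 (9.35 to 26.6 FPKM) and Cebpe were the 4 higher in OM 7d, against 8.44% of all genes. Ms4a3 passed the filter only through OM 7d. Prtn3, proteinase 3, stood at 35.5 FPKM in OM naive, 29.1 in OM 24h and 105 in OM 7d. Ctsg, cathepsin G, stood at 11.6 FPKM in OM naive, 1.41 in OM 24h and 34.4 in OM 7d. Mpo, myeloperoxidase, was under 2-fold higher at 84 FPKM in OM naive, 8.49 in OM 24h and 117 in OM 7d. Mpo, Prtn3 and Ctsg were lowest in OM 24h among the omental libraries, and in the mesentery they were at no more than 4.21 FPKM. Cebpe, a transcription factor of granulocytes, had its lowest omental level in OM naive, at 12.4 FPKM in OM naive, 15.3 in OM 24h and 28 in OM 7d, and was at 1.71, 7.25 and 3.97 in the naive, 24h and 7d mesenteric libraries.

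On the lower side, 10 of 22 actin regulators were at least 2-fold lower, against 2.38% of all 7099 genes. Myh9, nonmuscle myosin, stood at 92.5 FPKM in OM naive, 43.3 in OM 24h and 39.1 in OM 7d. Actr2, of the Arp2/3 complex, stood at 111 FPKM in OM naive, 66.6 in OM 24h and 37.4 in OM 7d. In the mesentery they stood at 91.2 and 53.3 and at 94 and 36.9 FPKM in MY naive and MY 7d. Of the 10 lower genes Capg alone was higher in MY 7d than in MY naive (155 to 202 FPKM). Lsp1 (862 to 747 FPKM) and Tagln2 (671 to 558 FPKM) were only slightly lower there. Wasl was at least 2-fold higher, at 7.26 FPKM in OM naive and 16.8 in OM 7d. The other 11 genes of this family were under 2-fold apart in the omentum, such as Actr3 (672 to 512 FPKM). Genes with sequence of ribosomal RNA were lower as well. Rn45s, the ribosomal precursor, stood at 2278 FPKM in OM naive, 928 in OM 24h and 867 in OM 7d, and nearly level in the mesentery at 605 in MY naive and 543 in MY 7d. Mir6236 stood at 4195 FPKM in OM naive, 991 in OM 24h and 653 in OM 7d. It was lower in the mesentery as well, at 2271 FPKM in MY naive and 401 in MY 7d. Of the genes called, 5 of the higher and 9 of the lower ones were short RNAs, some listed at 0 in 1 of the libraries, such as Snord104 (88.9 FPKM in OM naive and 0 in OM 7d) and Mir3064 (0 and 59.3), and no fold is given for them.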
